A study of Mus musculus with 2 samples.

Results

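A set of 10 genes of the small leucine-rich proteoglycan family and its close relatives were followed in cultured rib chondrocytes that lack the microRNA miR-140: Dcn, Bgn, Fmod, Lum, Prelp, Epyc, Omd, Ogn, Aspn and Chad. The 10 genes were listed by name, and every probe set that the array's platform annotation pairs with a single one of these symbols was taken, which gave 21 probe sets of 45101 on the array and 10 genes of 18193. Messenger RNA was measured on 2 Affymetrix Mouse Genome arrays, 1 hybridised with total RNA of a wild-type culture and 1 with that of a miR-140 knockout culture. Both cultures held chondrocytes, the cartilage-forming cells, isolated from the ribs of mice aged 5 days, and both carry a strain label that names C57BL/6 and CBA. The purpose of the series was to find candidate target transcripts of miR-140. How many mice gave each culture, and which part of the locus was deleted, are not given in the sources used here.

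Small leucine-rich proteoglycans are secreted proteins built mainly of leucine-rich repeats that fold into a curved solenoid. They bind collagen fibrils, set fibril diameter and spacing, and several carry a chondroitin, dermatan or keratan sulphate chain; some also bind growth factors such as TGF-beta. The family is sorted into classes by sequence. Class I here holds Dcn (decorin), Bgn (biglycan) and Aspn (asporin), class II Fmod (fibromodulin), Lum (lumican), Prelp and Omd (osteomodulin), class III Epyc (epiphycan) and Ogn (osteoglycin, or mimecan), and class IV Chad (chondroadherin). By their known tissue distribution, Epyc, Chad, Fmod and Prelp were called cartilage-type, and Dcn, Lum, Ogn, Aspn and Omd fibrous-type, which covers tendon, perichondrium, dermis and bone surfaces. Bgn, which is made in cartilage, bone and fibrous tissue alike, was put in neither group. The assignment of Fmod, Bgn and Omd is a judgement, Fmod being made in tendon as well.

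The agent removed in the knockout is shown first, because the 2 cultures are grouped by it. The hairpin of Mir140 in RefSeq (GRCm38.p6, chr8:107551244-107551313, plus strand) lies in an intron of Wwp2, and the table lists the mature strand miR-140-3p at chr8:107551288-107551308. The mature strand from the other arm of the hairpin had no entry there and is left unmarked. The seed shown is thus that of the listed strand only, and not of all that the knockout removes. Capitals mark miR-140-3p within the hairpin on the first line, and its seed, bases 2 to 8, on the second.
Mir140 hairpin: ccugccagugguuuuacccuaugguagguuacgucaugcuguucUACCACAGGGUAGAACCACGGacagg
miR-140-3p: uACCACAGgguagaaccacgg

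Promoter sequences, from 250 bases before to 50 after the annotated start, were found in RefSeq (GRCm38.p6) for 8 of the 10 genes, with 9 entries because Epyc has an entry for each of 2 starts; Dcn and Lum had no entry. They were searched on both strands for the letters ACAAAG or ACAATG, a core bound by SOX-type factors, and for TATAAA, the TATA box. No SOX-type match overlaps a TATA match, while the TATA matches of Ogn overlap each other; positions give the first base of a match from the annotated start. Epyc is shown because it had the largest difference of the family and was the only member among the 8 whose entries held the SOX-type letters, Fmod because it was the other member past 2-fold, and Aspn because a probe set of it was past 2-fold in the opposite direction. Capitals mark the motif matches, and all 4 entries are on the plus strand. The Epyc entries lie at chr10:97643818-97644117 and chr10:97646853-97647152, that of Fmod at chr1:134037004-134037303 and that of Aspn at chr13:49544193-49544492.
Epyc, first start: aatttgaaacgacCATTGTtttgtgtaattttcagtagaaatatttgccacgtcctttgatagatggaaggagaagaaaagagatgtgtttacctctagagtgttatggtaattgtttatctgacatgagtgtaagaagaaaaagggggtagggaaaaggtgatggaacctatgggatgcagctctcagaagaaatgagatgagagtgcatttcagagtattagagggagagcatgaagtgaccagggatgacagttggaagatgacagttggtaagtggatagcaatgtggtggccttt
Epyc, second start: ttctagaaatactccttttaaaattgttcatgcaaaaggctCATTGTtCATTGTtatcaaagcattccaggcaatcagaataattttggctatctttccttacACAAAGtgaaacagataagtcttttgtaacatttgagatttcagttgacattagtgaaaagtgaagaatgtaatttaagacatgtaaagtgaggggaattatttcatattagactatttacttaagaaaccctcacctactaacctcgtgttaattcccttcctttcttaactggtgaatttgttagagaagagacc
Fmod: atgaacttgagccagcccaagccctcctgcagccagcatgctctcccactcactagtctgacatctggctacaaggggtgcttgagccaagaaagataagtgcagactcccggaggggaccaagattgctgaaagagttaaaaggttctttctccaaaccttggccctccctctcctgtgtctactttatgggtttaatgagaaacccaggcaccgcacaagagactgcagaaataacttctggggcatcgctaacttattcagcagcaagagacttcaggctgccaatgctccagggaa
Aspn: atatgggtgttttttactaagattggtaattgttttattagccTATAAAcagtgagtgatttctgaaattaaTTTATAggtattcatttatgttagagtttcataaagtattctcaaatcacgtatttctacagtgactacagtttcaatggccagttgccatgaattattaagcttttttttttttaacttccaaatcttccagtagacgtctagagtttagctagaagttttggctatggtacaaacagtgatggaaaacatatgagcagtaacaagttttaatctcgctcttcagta

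The first Epyc entry held 1 SOX-type match, at -237 from the start, and the second held 3, at -209, -202 and -147. Such letters occurred in 28.6% of all 32851 promoter entries of this length. Fmod held neither motif. Aspn held TATAAA at -207 on the gene's strand and at -178 on the other, both far from the start, and Ogn held it at -227 on the gene's strand and -229 on the other. In Chad it lay at -28. On either strand TATAAA occurred in 13.6% of all entries. These matches describe letters in the windows only, and the arrays do not tell which Epyc start was in use.

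Each value below is a log2 signal that the authors summarised by the RMA method (Robust Multichip Average), and each difference is the knockout minus the wild-type log2 signal, so that -1 is a 2-fold lower and 1 a 2-fold higher signal in the knockout array. With 1 array per genotype there is no replicate check, no standard error and no test, so precision is limited by how few arrays there are. The cultures also differed in sex-linked transcripts, given below with Bgn. Genotype and sex make-up therefore cannot be separated for any member. Genes entered the comparison when at least 1 array gave 7 or more, a floor below which signal is near background, and each gene was represented by its brightest probe set, the one of highest mean signal. This kept 9 of the 10 members, Chad being under the floor, and 9897 genes in all, whose median difference was -0.05 with the central 95% between -0.69 and 0.47. Signal levels are compared only within a probe set, never between genes. The cells carried chondrocyte markers: 9 of 10 listed were above the floor in the wild-type array, Matn1 being under it, with Col2a1 at 13.98 and Acan at 12.02.

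Of the 9 members above the floor, 6 had lower and 3 higher signal in the knockout array by the probe set of highest mean. Their median was -0.28. Of all genes compared, 59.2% were lower, so the count by direction does not set the family apart. The 6 include Prelp, whose 2 probe sets disagree in sign. Epyc and Fmod were at least 2-fold lower, a size reached by 1.22% of all genes compared, and no member was at least 2-fold higher, which 0.475% of all genes were. At 1.5-fold, Omd joined the lower members (3.56% of all genes) and Lum was the 1 higher member (1.56% of all genes). The share of members past 2-fold in the lower direction was thus above that of all genes, in a family picked with these results known, and the counts describe this pair of arrays.

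**Figure D1:**
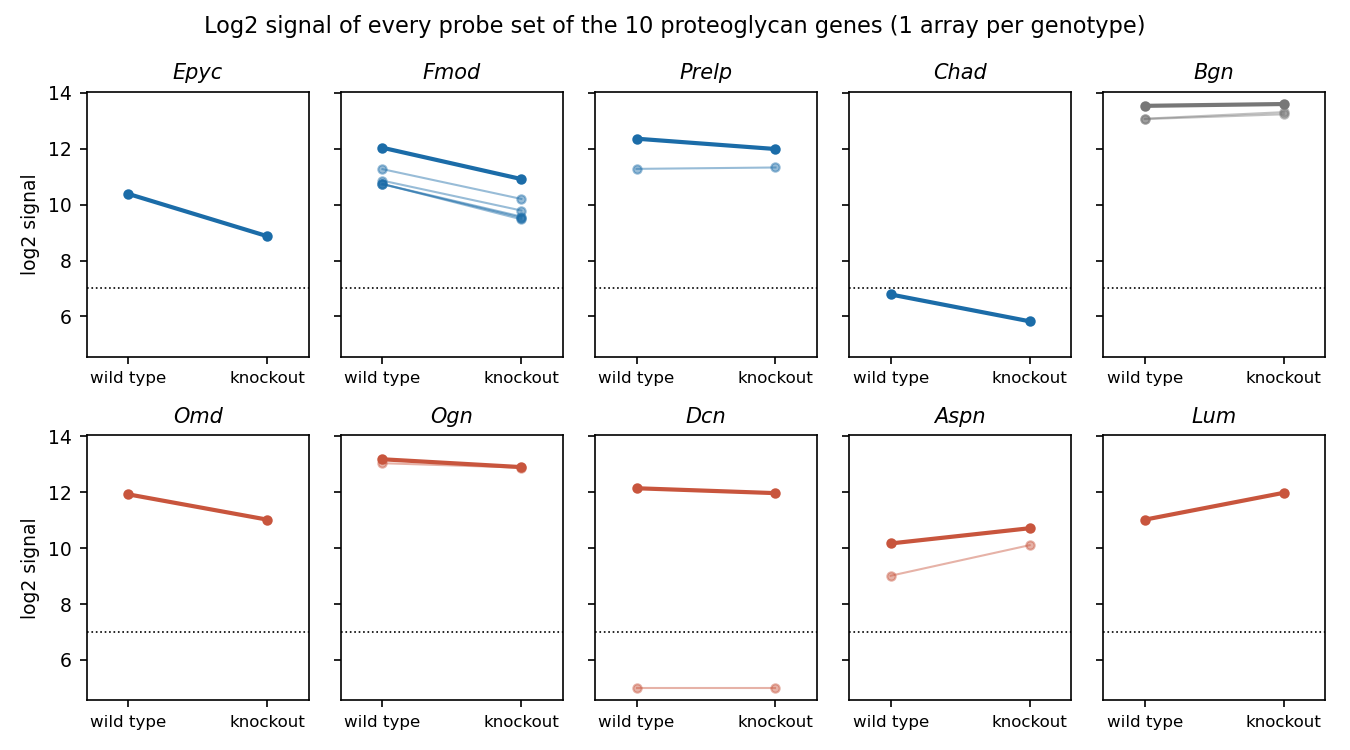
Log2 signal of every probe set of the 10 genes in the wild-type and the knockout array, 1 panel per gene; the thick line is the probe set of highest mean, and the dotted line is the floor of 7. All 6 Fmod probe sets slope down, both Aspn probe sets slope up, and Chad lies under the floor.

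Among the cartilage-type members, Epyc had the lowest difference. Epyc (Entrez 13516), a dermatan sulphate proteoglycan of growth plate cartilage, read 10.38 on the wild-type array and 8.87 on the knockout array. The knockout signal was 35.0% of the wild-type signal, a difference of -1.51 (2.85-fold lower). Of 9897 genes, 53 had a lower difference than Epyc. The gene has 1 probe set, so no second reading of it was to be had on these arrays.

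Fmod (Entrez 14264), a keratan sulphate proteoglycan that binds collagen and is made in cartilage and tendon, had 6 probe sets and thus the most readings. The one of highest mean read 12.03 on the wild-type array and 10.91 on the knockout array, a difference of -1.12 (2.18-fold lower, 46.0% of the wild-type signal). The 6 differences ran from -1.27 to -1.07, with a mean of -1.15 and a standard deviation of 0.08 between probe sets. All 6 were past 2-fold in the same direction. Most of the 6, that of highest mean included, carry the platform suffix x, which flags probes that may match other transcripts. By the probe sets of 1 transcript, meaning those without a suffix s, x or a, Fmod stood at -1.07. Probe sets of 1 gene share the RNA and the array, so their spread measures the reading of the transcript and not the spread between cultures. Over the 3838 genes with at least 2 probe sets above the floor, the range of differences within a gene had a median of 0.25, and that of Fmod was 0.20.

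Prelp (Entrez 116847), which binds collagen and heparan sulphate, was close to the bulk of genes. Its probe set of highest mean read 12.36 and 11.99, which differ by -0.37, while a second one gave 11.28 and 11.33, which differ by 0.05. The readings disagree in sign, so no direction is given for Prelp. Chad (Entrez 12643), a cartilage protein without the usual glycosaminoglycan chain that binds integrins and collagen, read 6.79 on the wild-type array and 5.83 on the knockout array. Both values lie under the floor; the difference of -0.96 is given as a value near background, and it is 0 when low values are raised to 7.

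The fibrous-type members spread to both sides. Lum (Entrez 17022), a keratan sulphate proteoglycan of cornea, dermis and tendon, read 11.02 on the wild-type array and 11.98 on the knockout array. The difference of 0.96 (1.95-fold higher) lies 0.04 short of 2-fold and passes it at 1.01 when all genes are centred on their median; 51 of 9897 genes had a higher one. Aspn (Entrez 66695), a class I member of perichondrium and periodontal ligament whose protein binds TGF-beta, had 2 probe sets, both higher in the knockout array. The one of highest mean read 10.17 and 10.71, a difference of 0.54 (1.46-fold higher), and the other read 9.01 and 10.11, a difference of 1.09. The gap between the readings of Aspn, 0.55, was exceeded by 14.6% of the 3838 genes with several probe sets, so its direction was shared by both readings and its size was not.

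Omd (Entrez 27047), a keratan sulphate proteoglycan of mineralised tissue and tendon, went the other way. It read 11.92 on the wild-type array and 11.02 on the knockout array, a difference of -0.90 (1.87-fold lower), and 149 genes had a lower one. Osteoblasts also make Omd. Of 6 listed osteoblast markers, Runx2 and Bglap had no probe set of their own. Of the other 4 (Sp7, Ibsp, Alpl and Dmp1), none reached the floor in either array. The summed linear signal of these 4 was 197 on the wild-type array and 203 on the knockout array. The part of osteoblasts in the difference of Omd was not tested.

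Dcn and Ogn were near the bulk of genes. Dcn (Entrez 13179), a dermatan sulphate proteoglycan that binds collagen and TGF-beta, read 12.14 and 11.97, a difference of -0.17, with 26.5% of genes lower. Its other probe set read 4.99 in both arrays, near background, and gives no information. Ogn (Entrez 18295), a class III member of bone, cornea and vessel wall, read 13.18 and 12.90 by the probe set of highest mean (-0.28) and 13.04 and 12.88 by the other (-0.16). Both readings of Ogn were lower, and only the first by more than 0.25, the median range between probe sets of a gene.

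Bgn (Entrez 12111), the chondroitin or dermatan sulphate proteoglycan closest to decorin, read 13.53 and 13.60, a difference of 0.06. Its other probe sets differed by 0.17 and 0.23, so all 3 readings were slightly higher. Bgn lies on the X chromosome, and the 2 cultures differed in sex-linked transcripts. Xist, the RNA of the inactive X, read 7.01 on the wild-type array and 10.60 on the knockout array. Another Xist probe set read 4.43 and 9.92, and the remaining one 4.92 and 5.89, under the floor. The Y-linked genes Eif2s3y (8.86 and 4.18), Kdm5d (7.75 and 4.13) and Uty (8.17 and 3.87) went the other way. These signals are those of cultures that differ in sex make-up. The 303 X-linked genes above the floor had a median difference of -0.03. The difference in sex make-up goes along with genotype for every member, X-linked or not. Its part in the values of Bgn and of the other members was not tested.

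**Figure D2:**
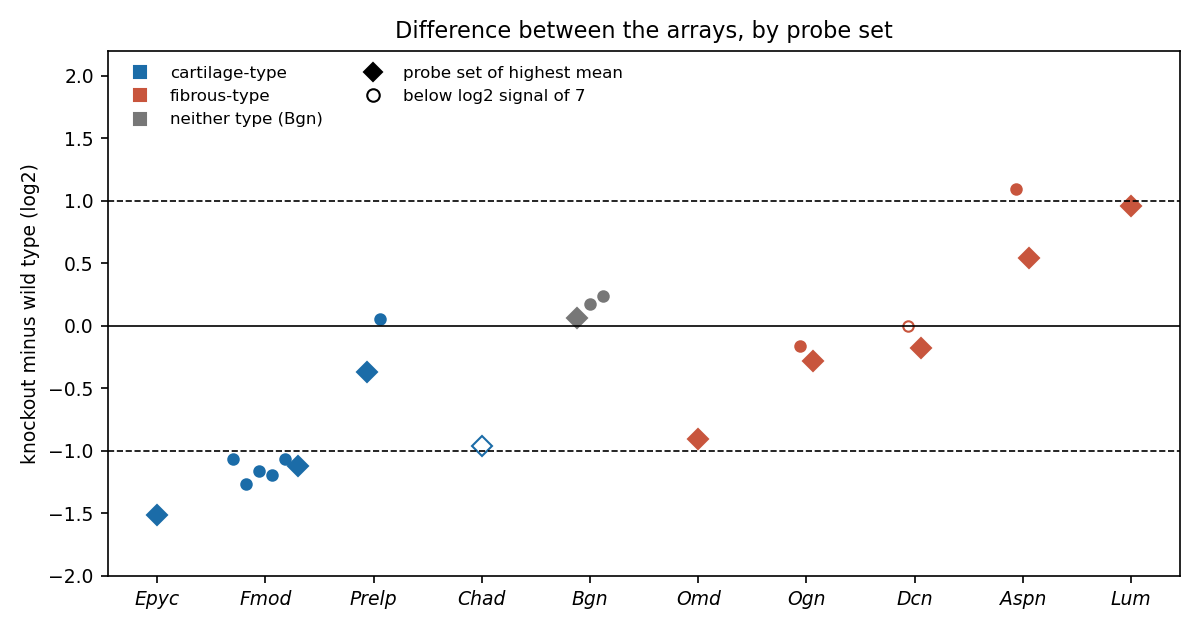
Difference of every probe set, knockout minus wild type on the log2 scale, for the 10 genes; diamonds are the probe sets of highest mean, open symbols lie under the floor and dashed lines mark 2-fold. Epyc (-1.51) and the 6 Fmod probe sets (-1.27 to -1.07) lie below the lower line, and 1 Aspn probe set (1.09) lies above the upper one.

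Set side by side, the cartilage-type members were lower than the fibrous-type members, with an overlap. The 3 cartilage-type members above the floor had differences of -1.51, -1.12 and -0.37, a median of -1.12. The 5 fibrous-type members ran from -0.90 to 0.96, with 2 higher and 3 lower and a median of -0.17. The medians differ by 0.95, or 1.93-fold. In 14 of the 15 pairs of a fibrous-type with a cartilage-type member the fibrous-type one had the higher difference; the exception was Omd against Prelp. With the other probe set of Prelp, at 0.05, the count is 12 of 15. No test of this contrast is possible with 1 array per genotype, and the types were assigned with earlier results of these arrays known. The contrast falls to 0.33 with probe sets of 1 transcript only, where Epyc has no probe set and Prelp is read at 0.05, and to 0.57 with Bgn counted as cartilage-type. It also falls to 0.57 without Epyc and to 0.71 with Fmod counted as fibrous-type. Without Dcn, Ogn or Omd the fibrous-type median turns from -0.17 to 0.13, 0.18 and 0.18.

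By class, the directions were also mixed. The 3 class I members ran from -0.17 (Dcn) to 0.54 (Aspn), and none reached 1.5-fold by its probe set of highest mean. The 4 class II members spanned the widest range, from Fmod at -1.12 to Lum at 0.96, although both carry keratan sulphate and bind fibrillar collagen. Both class III members were lower, Epyc at -1.51 and Ogn at -0.28, where 59.2% of all genes compared were lower.

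**Figure D3:**
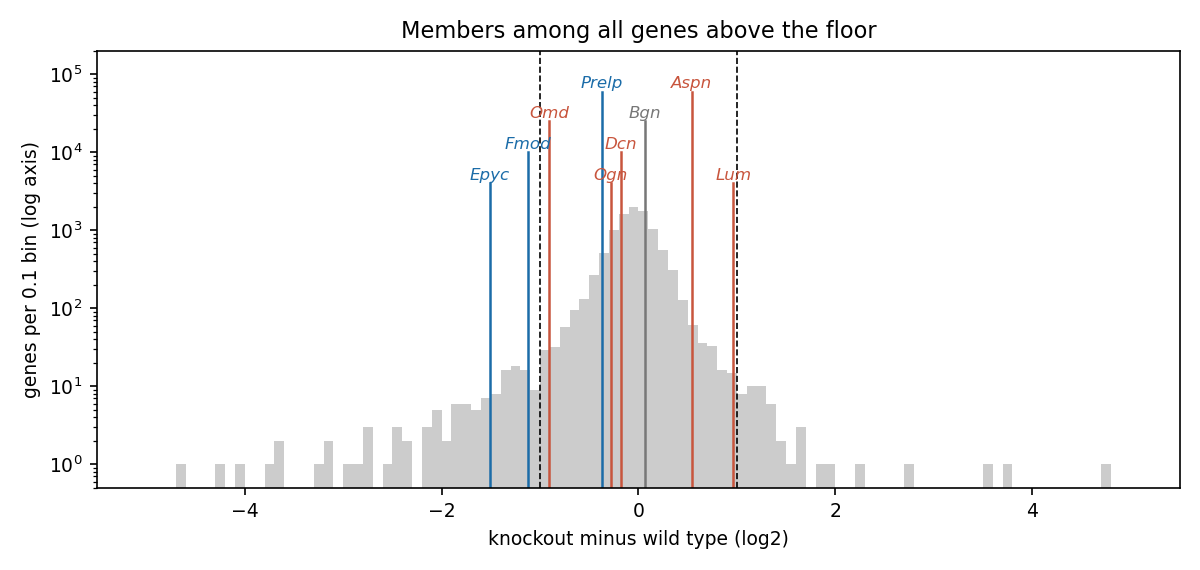
Number of genes per 0.1 of difference (log2, knockout minus wild type; the count axis is logarithmic) for the 9897 genes above the floor, with a line for each of the 9 members among them and dashed lines at 2-fold. Epyc and Fmod lie beyond the lower dashed line and Lum (0.96) just inside the upper one, while Bgn, Dcn, Ogn and Prelp lie in the central 95%.

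Most of these genes lie in clusters, a property that played no part in choosing them. In the order of protein-coding genes of the RefSeq table (GRCm38.p6), Dcn, Lum, Kera and Epyc follow each other on chromosome 10, Ecm2, Aspn, Omd and Ogn on chromosome 13, and Optc, Prelp and Fmod on chromosome 1, while Chad on chromosome 11 and Bgn on the X chromosome stand alone. Neighbours in a cluster shared a direction in some cases and not in others. On chromosome 10, Lum stood at 0.96 and Epyc at -1.51, with Dcn at -0.17 and Kera between them under the floor (4.55 and 4.94). On chromosome 13, Aspn stood at 0.54 and its next neighbour Omd at -0.90, followed by Ogn at -0.28. On chromosome 1, Fmod stood at -1.12 and Prelp at -0.37, with Optc under the floor (6.20 and 6.21).

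Genes outside the family that flank the clusters had smaller differences than Epyc and Fmod. Btg2, next to Fmod, stood at 0.03. Atp2b1, a calcium pump gene beyond Epyc, stood at -0.63, and Btg1 before Dcn at -0.34. Nol8 and Iars after Ogn stood at -0.56 and -0.52, and Ippk before the chromosome 13 cluster at -0.37. These 3 genes were thus all lower, as Omd and Ogn were and Aspn was not; Cenpp, whose span takes in this cluster, lay under the floor (6.62 and 6.04).

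**Figure D4:**
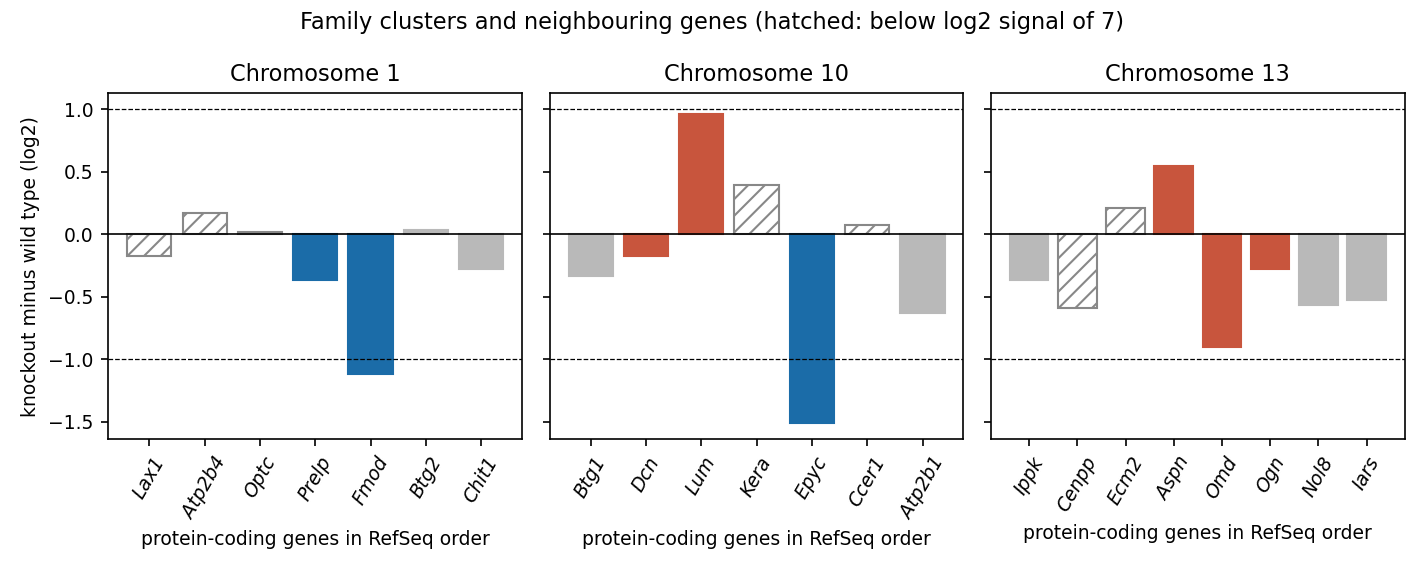
Differences (log2, knockout minus wild type) of the family clusters on chromosomes 1, 10 and 13 and of the flanking protein-coding genes that have a probe set of their own, in RefSeq order and not to distance; blue bars are cartilage-type and red bars fibrous-type members, grey bars are other genes, hatched bars lie under the floor. Lum and Epyc on chromosome 10, and Aspn and Omd on chromosome 13, point in opposite directions.

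The other genes of the family were mostly under the floor. Of 8 further relatives listed, 6 had a probe set of their own and 2 of these were above the floor. Chadl, a chondroadherin-like gene of cartilage, read 8.89 on the wild-type array and 7.74 on the knockout array, a difference of -1.16 (2.23-fold lower). Podn (podocan) read 7.41 and 7.50, a difference of 0.09. Besides Kera and Optc, Nyx (5.55 and 5.70) and Ecm2 (5.92 and 6.13) stayed under the floor.

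The fibril collagens to which these proteins bind were compared in the same way. All 6 listed collagen genes of cartilage fibrils were at least 2-fold lower, a size reached by 1.22% of all genes compared. Their median was -2.05, with Col9a2 at -3.80, Col9a3 at -2.99, Col11a2 at -2.09 and Col2a1 at -2.001. On the knockout array Col9a2 read 6.06, under the floor. Among the cartilage-type proteoglycans, Epyc (-1.51) was lower by more than only Col11a1 (-1.22), and Fmod (-1.12) by more than none of the 6. Of the 10 collagen genes of fibrous tissue, 7 were higher and 3 lower, with a median of 0.18, where 40.0% of all genes compared were higher. Col3a1, the chain of type III collagen, stood at 1.38 and Col14a1 at 1.21, both at least 2-fold higher, which 0.475% of all genes compared were. A second probe set of Col3a1 stood at 1.56, whereas that of Col14a1, at 0.65, was short of 2-fold. Col6a1 stood at -0.40 and Col5a1 at 0.37. Lum and Aspn lay with the upper part of that range, and Omd below all 10 of its genes.

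Among genes that build the sugar chains, 1 was past 2-fold, being lower, a size reached by 1.22% of all genes compared. Of 15 listed genes of dermatan and chondroitin sulphate synthesis above the floor, 12 were lower and 3 higher, with a median of -0.21, where 59.2% of all genes compared were lower. The member at least 2-fold lower was Chst11, a chondroitin sulphotransferase, at -1.14, with a further probe set at -0.41. Csgalnact1, which starts chondroitin sulphate chains, stood at -0.998 (1.998-fold lower), with a further probe set at -0.43, and Chsy1 at -0.50. Fam20b, a xylose kinase of the linker, stood at -0.47, but its further probe set stood at -0.003. Dse, the epimerase that makes dermatan sulphate, stood at -0.25. In the keratan sulphate list, 3 of 6 genes were higher, where 40.0% of all genes compared were. The median was -0.02, and none reached 2-fold. Chst1 stood at -0.32, B4galt1 at 0.23, B4galt4 at 0.16 and B3gnt2 at -0.16, the last with a further probe set at 0.56.

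Of 7 listed genes that supply sulphate for the chains and for the sulphated tyrosines of members such as Fmod, 2 were at least 2-fold lower. Of all genes compared, 1.22% were. Slc26a2, the sulphate transporter of chondrocytes, read 9.89 on the wild-type array and 8.08 on the knockout array, a difference of -1.82 (3.53-fold lower), and its 3 probe sets ran from -1.84 to -1.14. Papss2, which makes the sulphate donor, stood at -1.46, with 3 probe sets from -1.46 to -0.88. Papss1 stood at -0.38 and the tyrosine sulphotransferase Tpst1 at -0.19. The list median was -0.19, beside -0.05 for all genes, and Slc35b3 (-0.05) and Tpst2 (-0.02) lay close to the latter, Tpst2 above it.

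**Figure D5:**
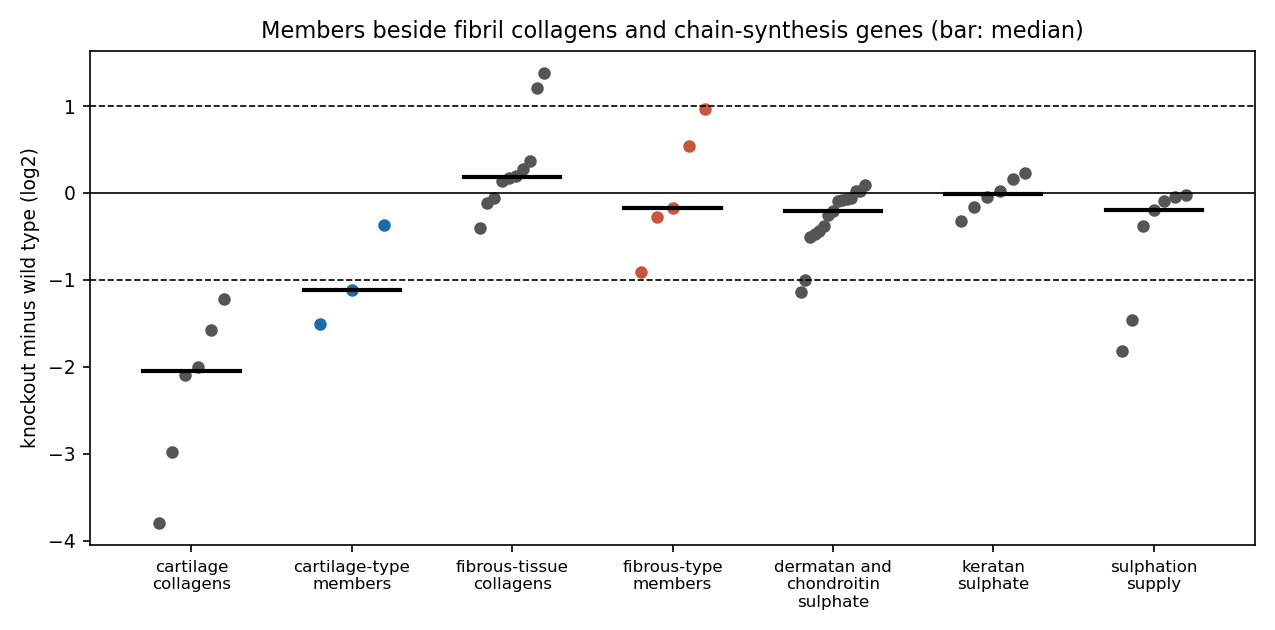
Difference of each gene above the floor (log2, knockout minus wild type) in the lists of fibril collagens, the proteoglycan groups and the lists of chain synthesis and sulphation; points are genes, bars are medians and dashed lines mark 2-fold. The cartilage collagens have a median of -2.05 and the cartilage-type members of -1.12, while the fibrous-tissue collagens have 0.18 and the fibrous-type members -0.17.

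Markers of cell types also differed between the arrays, and 5 of them (Col2a1, Col9a1, Col1a1, Col1a2 and Col3a1) are also in the collagen lists above. All 9 chondrocyte markers above the floor were at least 2-fold lower, a size reached by 1.22% of all genes compared. Their median was -2.001, and the summed linear signal of the 10 listed was 56648 on the wild-type array and 14570 on the knockout array. The 9 were Acan (-4.03), Snorc (-2.89), Hapln1 (-2.45), Cnmd (-2.40), Col2a1 (-2.001), Comp (-1.67), Col9a1 (-1.58), Matn3 (-1.30) and Sox9 (-1.18). Of 9 fibroblast and perichondrium markers above the floor, 8 were higher, where 40.0% of all genes compared were. Their median was 0.27, unlike the fibrous-type members at -0.17, and the summed signal of the 10 listed was 22866 and 28262. Col3a1 (1.38) and Fap (1.23) were past 2-fold, followed by Fbln2 (0.72), Col1a1 (0.28), Twist1 (0.27), Prrx1 (0.14), Col1a2 (0.13) and Pdgfra (0.08); Postn stood at -1.26. Thy1, the other fibroblast marker, stayed under the floor. In whole cultures, fewer cells of a type and less RNA per cell cannot be told apart, and the part of cell makeup in the differences of the proteoglycans was not tested. The host gene Wwp2 read 9.65 and 7.13 by its probe set of highest mean, a difference of -2.52. Its further probe sets above the floor in the wild-type array differed by -4.50 (10.35 and 5.85), -1.88 and -0.99, so the size varied between readings. The remaining Wwp2 probe sets lay under the floor. The mature microRNA itself was not measured here.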

How the data were processed

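The 2 arrays, 1 of wild-type and 1 of miR-140 knockout rib chondrocytes, were grouped by their sample titles. The authors deposited log2 signals summarised by RMA, per the labels' design text, in Affymetrix Expression Console 1.1, per the submitters' processing notes; the log2 scale was read from the values (3.24 to 14.2). RMA draws the arrays to a common distribution (sorted values differ by at most 0.157), so a shift shared by most genes would be removed, and it compresses differences of dim probe sets. The RefSeq table (GRCm38.p6) matched 34741 of 34945 probe sets with a single symbol by Entrez identifier, and no symbol differed.

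All differences, medians and counts were computed over 18193 genes in Python 3.11.15 with pandas 2.3.3 and statsmodels 0.14.6 (lowess span 0.2), and the counts were tested on simulated data. The members, their types and the gene lists were chosen with earlier results of these data known. Named genes are all members and relatives with a probe set and all chondrocyte and fibroblast markers above the floor. Up to 4 genes per other list, and Wwp2, are also named. Flanking genes, Xist, Eif2s3y, Kdm5d, Uty, Matn1, Thy1, the osteoblast markers and a few further list genes were added after the data were seen. So was the second Prelp reading in the pair count. Alternatives were median, lowess and further quantile centring, floors of 6, 8 and none, low values raised to 7, the mean of all probe sets, probe sets of 1 transcript, 1.5-fold, means, other assignments of Bgn, Fmod and Omd, and leaving out each member. A shift was counted if above 0.15, the median standard deviation between probe sets of a gene. Of 8 further relatives, Tsku and Podnl1 were not analysed here.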

Additional observations from a re-analysis of the deposited data

How the results depend on the processing

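The count of members at least 2-fold lower stayed at 2 under the scalings, floors and probe set mean, was 3 at 1.5-fold and fell to 1 with probe sets of 1 transcript, which hold none for Epyc. The count of members at least 2-fold higher rose from 0 to 1 under median centring, quantile normalization, lowess centring and a 1.5-fold threshold, in each case Lum (1.01, 1.004 and 1.01 under the scalings), and to 1 with probe sets of 1 transcript, where it was Aspn at 1.09. The cartilage-type median of -1.12 became -0.51 with probe sets of 1 transcript, -0.75 with Bgn as cartilage-type and -0.94 with Fmod as fibrous-type, and ran from -1.32 to -0.75 when single members were left out. The fibrous-type median of -0.17 became 0.029 as a mean and 0.18 with Omd left out, and ran from -0.23 to 0.18. The difference of the medians, 0.95, became 0.33, 0.57, 0.71 and 1.31 with probe sets of 1 transcript, Bgn as cartilage-type, Fmod as fibrous-type and Omd left out, and ran from 0.57 to 1.31; it stayed above 0 in every setting run. Epyc (-1.51 to -1.47) and Fmod (-1.15 to -1.07) kept their side of 2-fold wherever they had a value. No paired analysis was possible because each genotype has 1 array. Chad gave no value above the floor of 7, and its signal near background limits what can be said of it.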

Other observations

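Growth factors and receptors that members of the family are known to bind were mixed in direction. Of 12 listed genes above the floor, 5 were higher and 7 lower in the knockout array, with a median of -0.08, where 59.2% of all genes compared were lower. Tgfb2, a ligand bound by decorin, biglycan and fibromodulin, read 11.35 on the wild-type array and 10.17 on the knockout array, a difference of -1.18 (2.27-fold lower), and its 4 probe sets ran from -1.36 to -0.84. Tgfb1 and Tgfb3 stood at -0.19 and -0.05. Egfr, a receptor tyrosine kinase that decorin binds, stood at 0.74 with 4 probe sets from 0.30 to 0.76, and Met, another such receptor, at -0.59 with a knockout signal under the floor (6.84). Tlr4, a receptor of soluble biglycan, stood at 0.69 (0.41 by a second probe set), and Tlr2 at -0.14.

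Of 5 tendon and ligament markers, 2 were above the floor. Egr1, also an immediate early gene of many cell types, read 9.64 and 9.30, and Scx, the tendon transcription factor, 7.90 and 7.63, while Tnmd (4.25 and 3.85), Mkx (6.50 and 6.74) and Thbs4 (5.58 and 5.48) stayed under the floor in both arrays. Among other cell types, Lpl (1.11) and Fabp4 (0.51, and 1.06 by a second probe set) of the adipocyte list were higher. Adipoq stayed under the floor (4.98 and 5.25), and Acta2 of the smooth muscle list stood at -0.46. Of 5 macrophage and leukocyte markers, 3 were above the floor with a median of -0.01, of 4 endothelial markers 1 (Kdr, -0.06) and of 4 skeletal muscle markers 1 (Des, 0.14).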
